A study of Mus musculus with 6 samples.

Results

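Extracellular antagonists of bone morphogenetic proteins (BMPs) were followed in stromal cells of the mouse gut. The 9 genes were *Grem1*, *Chrdl1*, *Nog*, *Chrd*, *Fst*, *Fstl1*, *Twsg1*, *Bmper* and *Sostdc1*, taken by name from the 33697 genes in the count tables, and each was described in every cell class and every library. The data were 6 droplet single-cell RNA libraries. Flare-TSLP mice carry a tdTomato cassette at the *Tslp* locus, and live tdTomato+ cells of their gut lamina propria were collected by flow cytometry. The sort was meant to take only cells with reporter signal, and no treatment was given in the labels. Transcript of tdTomato was sparse, at 301 to 1081 UMIs (counted molecules) per library over all barcodes. No filter on it was applied, and whether the cells of each class carried the reporter was not tested. The labels name proximal jejunum for 2 libraries (called proximal small intestine), distal ileum for 2 (called distal small intestine), cecum for 1 and large intestine for 1. Each library held 3 cell hashtags, and the labels did not tie a hashtag to an animal, so the library was the unit of replication and p-values measured the spread between these libraries only.

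BMPs are secreted ligands that signal through receptor kinases and SMAD proteins and that, in the gut, hold back stem cell expansion at the crypt and favour differentiation along the villus. Their reach is set by secreted proteins that bind the ligand before it meets its receptor, and stromal cells below the crypt are a known source of such proteins. Trophocytes are CD34+ fibroblasts beneath the crypt, subepithelial myofibroblasts (SEMFs) line the epithelium, telocytes are SEMF-related cells marked by *Foxl1*, and *Pi16*+ universal fibroblasts lie in the adventitial layer.

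Cells were sorted into classes by marker genes that did not include any of the 9 antagonists. After removal of predicted doublets 93558 cells remained, of which 69810 were fibroblast-gated. Between 800 and 1961 of them per library carried several hashtags and were kept, and leaving them out was tried as an alternative. Cells with no called hashtag were kept as well, also in that alternative. The subset gates were trophocyte (11735 cells, markers *Ackr4*, *Cd34*, *Cd81*, *Sfrp1*, *C3* and *Dkk2*), *Adamdec1* fibroblast (8347 cells), SEMF (6702 cells, markers such as *Procr*, *Agt* and *Nrg1*), telocyte (2969 cells, markers such as *Foxl1*, *Wnt5a* and *Lgr5*) and universal fibroblast (6233 cells, markers such as *Pi16* and *Dpp4*). The remaining 33824 fibroblasts, 48.5% of them, met no subset gate and are given as other fibroblasts. A gate on a score marks a range and not a cell type: between 8.18% of telocyte-gated cells and 28.4% of *Adamdec1*-gated cells lay near the limit, and 7937 other fibroblasts lay just outside. The median trophocyte-gated cell had 5 of the trophocyte markers, 3 of the *Adamdec1* set and 1 of the SEMF set, and the median SEMF-gated cell had 6 SEMF markers, 4 of the *Adamdec1* set and 1 trophocyte marker. Telocyte-gated cells of the small intestine were few, with 124, 67, 55 and 45 cells per library, whereas 2249 came from the large intestine. The median telocyte-gated cell over all libraries had 4 telocyte and 5 SEMF markers. In the small intestine alone the medians were 3 telocyte and 4 SEMF markers, where the gate asked for at least 3 markers. Lymphatic endothelial cells (LECs, 15592 cells), blood endothelium, pericytes, myofibroblasts, glia and immune cells were gated as well.

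Sequencing depth ranged from 109675337 to 206827504 unique molecular identifiers (UMIs) per library and the median from 6606.5 to 9233 UMIs per cell. Any pair of libraries shared 38 to 118 cell barcodes, at most 0.609% of the smaller library. A level is given below in CPM, the UMIs of a gene in a class of a library scaled to a class total of 1000000 UMIs, in the order first and second proximal and first and second distal small intestinal library, then cecum and large intestine. Free RNA, taken from barcodes with at most 100 UMIs, made up 2.90% to 3.82% of the UMIs and held *Grem1* at 43.1 to 544 CPM, so that low levels in other classes are read beside it.

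The upstream sequences of 4 antagonists are shown because their transcripts moved in opposite directions between trophocyte-gated and SEMF-gated cells. *Grem1* and *Chrd* were lower and *Twsg1* and *Bmper* higher in SEMF-gated cells. *Fstl1* was also lower, by a log2 fold change of -0.66, and its sequence is not printed. RefSeq promoter windows (GRCm38.p6) matched 5 of the 9 genes, *Grem1*, *Chrd*, *Fstl1*, *Twsg1* and *Bmper*, whereas *Chrdl1*, *Nog*, *Fst* and *Sostdc1* had no entry. A window runs from 250 bases before to 50 bases after the start. The 250 bases before the start are printed 5′ to 3′, with matches to the letters GGCGCC, the core of a GC-rich element bound by BMP SMADs, in capitals.
Grem1, chr2:113758649-113758898, minus strand: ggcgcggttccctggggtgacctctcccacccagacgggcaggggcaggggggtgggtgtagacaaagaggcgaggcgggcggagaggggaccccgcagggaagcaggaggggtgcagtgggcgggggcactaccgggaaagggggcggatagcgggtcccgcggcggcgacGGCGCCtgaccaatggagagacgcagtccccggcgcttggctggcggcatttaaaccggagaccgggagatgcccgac
Chrd, chr16:20732877-20733126, plus strand: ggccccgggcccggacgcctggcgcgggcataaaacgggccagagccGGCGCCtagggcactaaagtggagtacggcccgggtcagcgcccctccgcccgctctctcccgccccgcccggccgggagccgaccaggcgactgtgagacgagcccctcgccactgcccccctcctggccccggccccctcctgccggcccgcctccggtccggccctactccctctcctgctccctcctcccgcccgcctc
Twsg1, chr17:65951188-65951437, minus strand: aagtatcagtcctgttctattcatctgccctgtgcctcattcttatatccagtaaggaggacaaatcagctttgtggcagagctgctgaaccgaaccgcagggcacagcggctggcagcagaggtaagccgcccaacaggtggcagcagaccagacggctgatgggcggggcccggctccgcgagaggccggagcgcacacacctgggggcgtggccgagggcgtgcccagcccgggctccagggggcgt
Bmper, chr9:23222826-23223075, plus strand: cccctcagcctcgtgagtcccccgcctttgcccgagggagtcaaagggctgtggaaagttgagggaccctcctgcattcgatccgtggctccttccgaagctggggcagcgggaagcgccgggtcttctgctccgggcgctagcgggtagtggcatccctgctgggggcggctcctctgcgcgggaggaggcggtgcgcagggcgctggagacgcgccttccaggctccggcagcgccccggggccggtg
The *Grem1* and *Chrd* windows each held 1 match to GGCGCC, which begins 78 bases before the *Grem1* start and 203 bases before the *Chrd* start, and the *Fstl1*, *Twsg1* and *Bmper* windows held none. Of 32851 such promoter windows, 11.9% held this motif, which reads the same on both strands. None of the 5 windows held the forkhead letters TGTTTAC (3.65% of all windows), the GLI core GGGTGGTC (0.807%) or the TATA letters TATAAA (13.6%) on either strand. These are letter matches and carry no measurement of binding. Over these whole windows the 5 genes had a G and C content of 66.7% to 78.3%, against a median of 52.7% over all windows.

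In GRCm39, the build of the count files, *Grem1* lies on chr2:113576509-113589000, *Chrdl1* on chrX:142068670-142177258, *Nog* on chr11:89191464-89193158, *Chrd* on chr16:20550622-20561857, *Fst* on chr13:114588731-114595521, *Fstl1* on chr16:37597105-37656876, *Twsg1* on chr17:66228966-66258380, *Bmper* on chr9:23134325-23396509 and *Sostdc1* on chr12:36364137-36368451, all as protein-coding genes of GENCODE. *Chrd* overlaps *Thpo* and *Fst* overlaps *Gm47040* on the opposite strand, and *Sostdc1* overlaps *Gm40392* on its own strand, so reads in the shared stretch could be assigned to either gene of the *Sostdc1* pair or to none. Their identifiers in the count files are, in the same order, ENSMUSG00000074934, ENSMUSG00000031283, ENSMUSG00000048616, ENSMUSG00000006958, ENSMUSG00000021765, ENSMUSG00000022816, ENSMUSG00000024098, ENSMUSG00000031963 and ENSMUSG00000036169.

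The leading class in the small intestine differed among the antagonists, and no class led for more than 3 of the 9 genes. Trophocyte-gated cells led for *Grem1*, telocyte-gated cells for *Fst*, *Twsg1* and *Chrd*, SEMF-gated cells for *Bmper*, universal fibroblast-gated cells for *Fstl1*, pericytes for *Chrdl1*, myofibroblasts for *Nog* and glia for *Sostdc1*. The ranges of the leading class and of the next class did not overlap for 7 genes and overlapped for *Chrdl1* and *Chrd*. Classes were ranked by their means over these same libraries. The share of all genes with such a gap was not computed, so this count is not read as a trait of the antagonists.

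**Figure D1:**
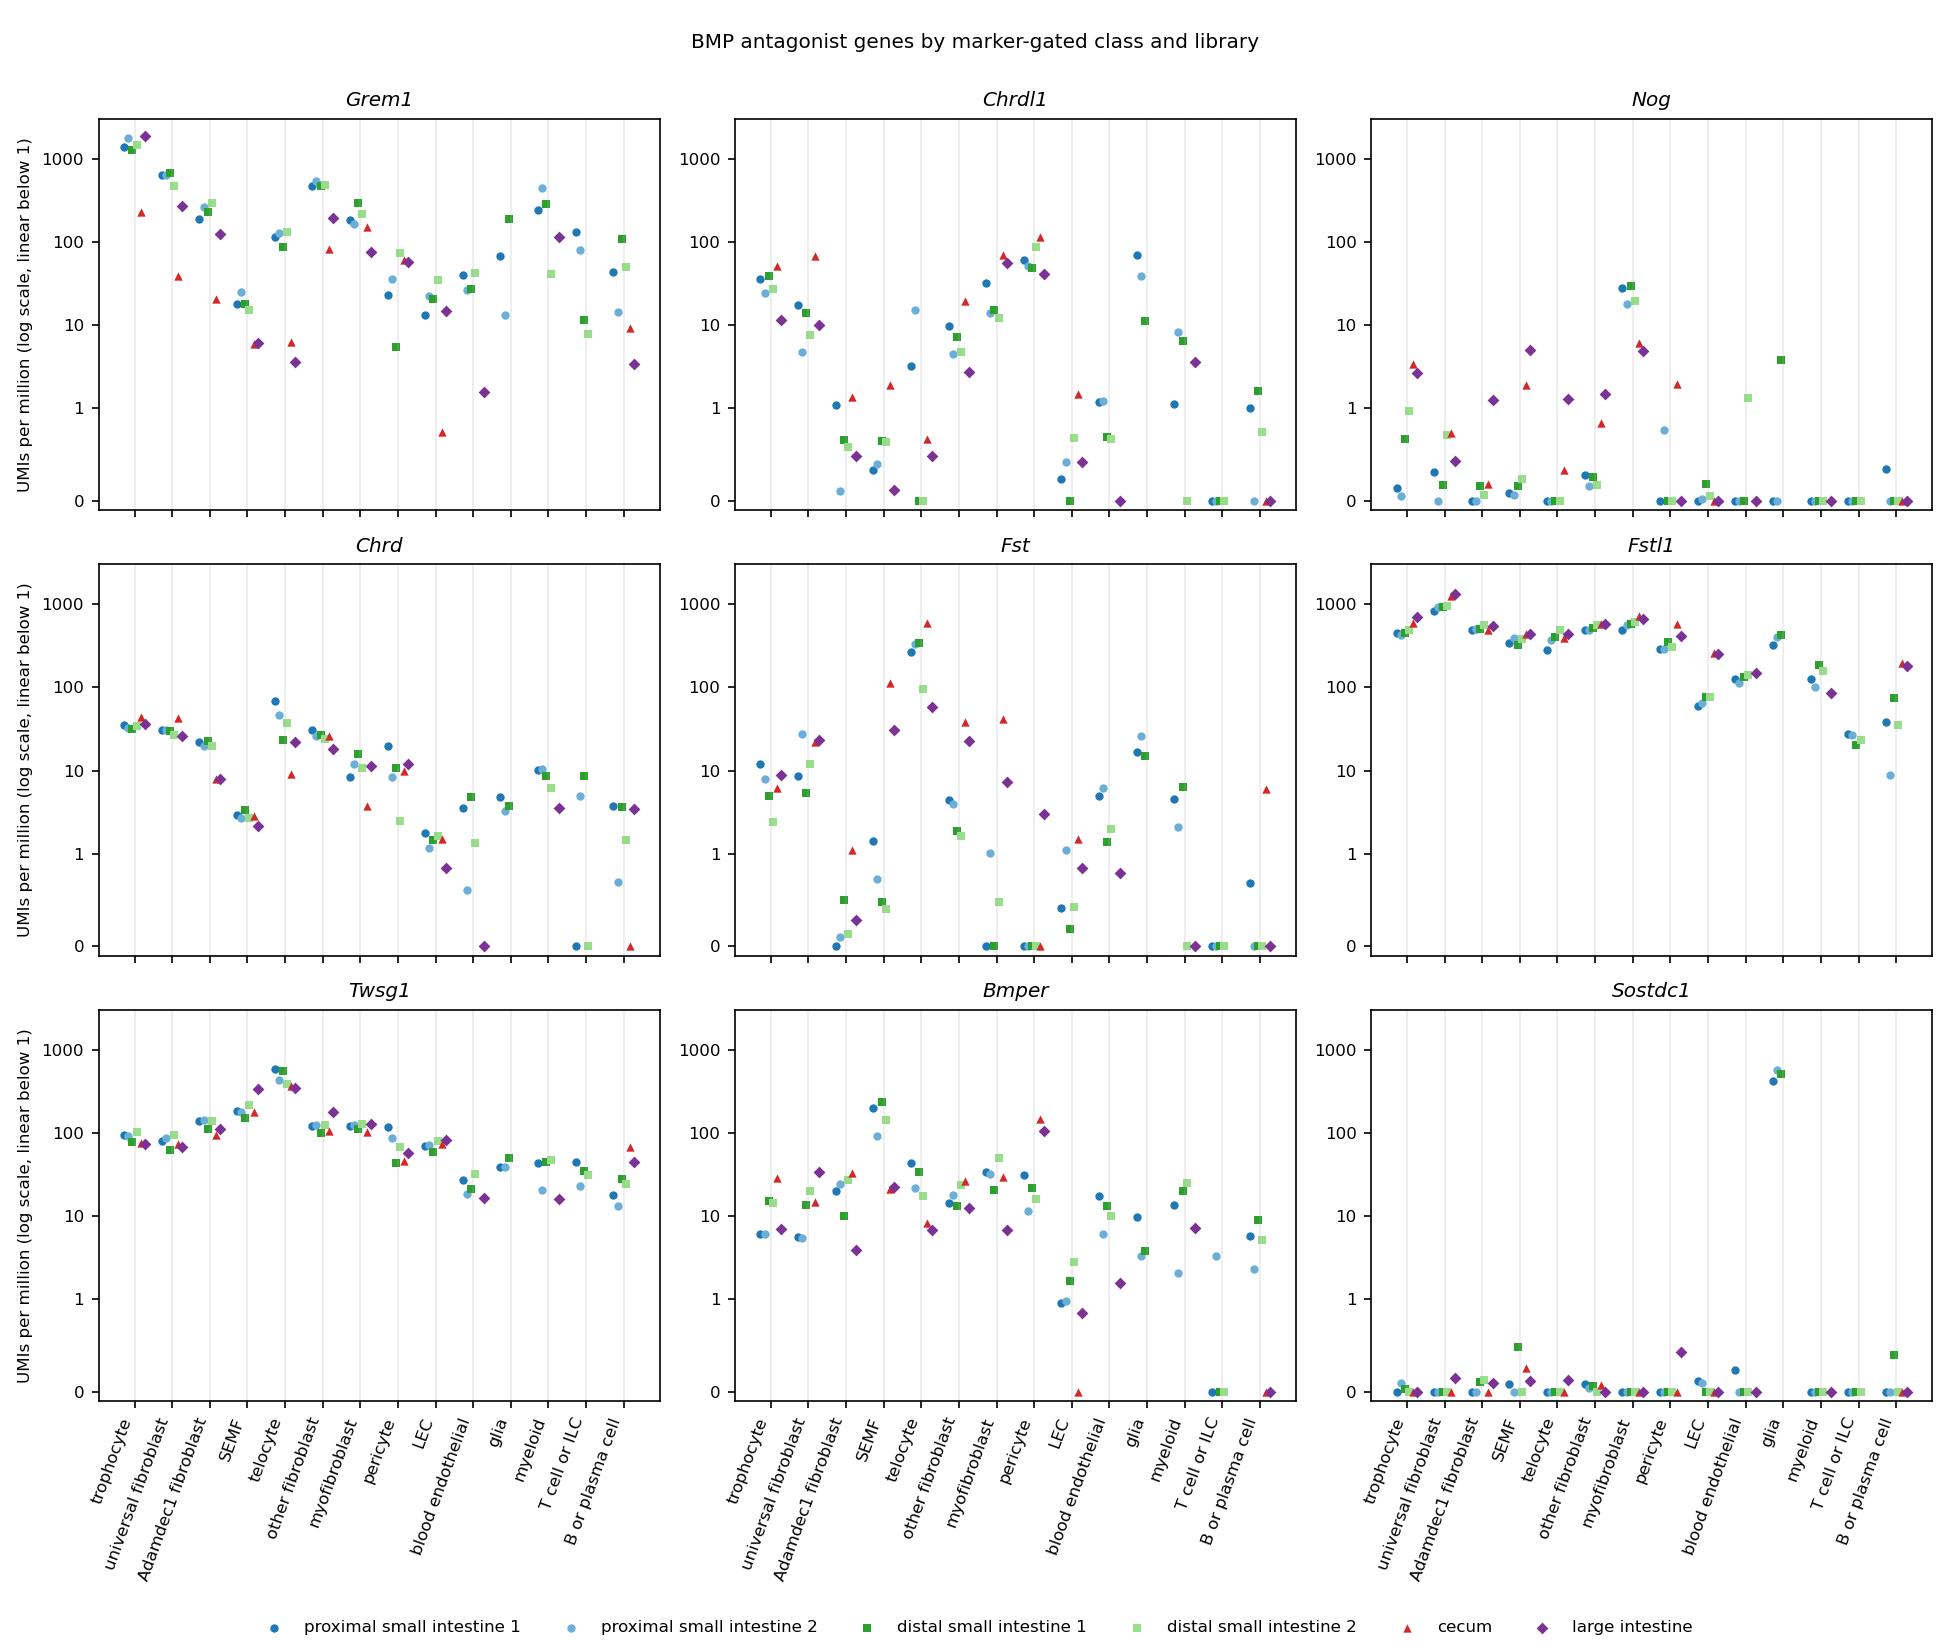
Levels of the 9 BMP antagonists (CPM, symmetric log axis that is linear below 1) by gated cell class, 1 point per library. *Grem1* in trophocyte-gated cells of the small intestine lies between 1284 and 1787, *Nog* stands out in myofibroblasts (17.9 to 29.2) and *Sostdc1* in glia (424 to 576).

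*Grem1* encodes gremlin 1, a cystine-knot protein of the DAN family that binds BMP2, BMP4 and BMP7 and sustains intestinal stem cells. Its level in trophocyte-gated cells was 1400, 1787, 1284 and 1476 CPM in the 4 small intestinal libraries (mean 1487 ± 215, SD, n = 4), 230.4 (cecum) and 1871 (large intestine). Universal fibroblast-gated cells held 634, 640, 667 and 464 (601 ± 92.6), which were all below the lowest trophocyte value, and 39.5 (cecum) and 269 (large intestine). *Adamdec1*-gated fibroblasts held 189, 263, 232 and 293 (244 ± 44.5), then 20.4 and 125. In the small intestine the lowest levels among fibroblast subsets were in SEMF-gated cells, with 17.9, 25.2, 17.9 and 15.0 (19.0 ± 4.35), then 6.01 and 6.12. Telocyte-gated cells held 114, 129, 87.4 and 133 (116 ± 20.6) in the small intestine but 6.35 and 3.59 in the large bowel libraries. The cecum value rested on few cells: the 392 cells with 1 hashtag held 1 *Grem1* UMI (0.374 CPM), and 15 of the 19 UMIs came from 29 cells with several hashtags. In the small intestine telocyte-gated cells with 1 hashtag held 89.0, 44.3, 73.0 and 149 CPM, against 16.6, 23.3, 14.5 and 13.1 in such SEMF-gated cells. Telocyte-gated cells with no called hashtag (20, 21, 3 and 12 cells) held 311, 218, 275 and 77.9, against 11.8, 34.5, 0 and 25.3 in such SEMF-gated cells. All 4 small intestinal values of telocyte-gated cells exceeded all those of SEMF-gated cells.

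Counted as cells with at least 1 *Grem1* UMI after thinning each cell to 2500 UMIs, 75.9 ± 4.48% of trophocyte-gated, 43.9% of universal fibroblast-gated, 30.8% of *Adamdec1*-gated, 11.6% of telocyte-gated and 3.61% of SEMF-gated cells were positive (means over 4 libraries). LECs, which are not expected to transcribe *Grem1*, were positive in 3.78% of cells, so the share in SEMF-gated cells was not above that background. Without thinning the shares were 88.9% in trophocyte-gated cells (median 8358 UMIs per cell), 10.7% in SEMF-gated cells (8496) and 9.02% in LECs (6068). Outside the fibroblasts, *Grem1* reached 183, 164, 291 and 216 CPM in myofibroblasts, whose ranges overlapped those of *Adamdec1*-gated cells, and 241, 444, 288 and 40.7 in myeloid cells. Fibroblast marker genes summed to 6491 to 12798 CPM in the myeloid sums and 7392 to 13561 in the myofibroblast sums of the small intestine, against 705 to 1266 in LECs and 37036 to 41848 in trophocyte-gated cells. The part of such carried-over fibroblast RNA in these *Grem1* levels was not tested.

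*Chrd*, encoding chordin, and *Chrdl1*, encoding chordin-like 1, belong to the chordin family, whose cysteine-rich domains bind BMPs until proteases of the tolloid group cut them. *Chrd* was detected in most fibroblast subsets at 35.5, 32.7, 31.7 and 34.8 CPM in trophocyte-gated cells (33.7 ± 1.79, n = 4), 44.3 (cecum) and 36.1 (large intestine). Relative to its mean its SD was smallest in this subset, and its SD was largest in telocyte-gated cells, which held 68.2, 46.0, 23.5 and 37.0 (43.6 ± 18.8) from 119 UMIs in all, then 9.02 and 22.2. SEMF-gated cells held 2.93, 2.73, 3.39 and 2.72 (2.94 ± 0.31), below every other fibroblast subset in all 4 libraries. *Adamdec1*-gated cells lay between, at 21.9, 19.9, 23.0 and 19.8 in the small intestine, and held 7.92 and 8.03 in the cecum and large intestine libraries. In thinned cells a *Chrd* UMI was found in 8.82% of telocyte-gated and 8.54% of trophocyte-gated cells, 0.69% of SEMF-gated cells and 0.34% of LECs.

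*Chrdl1* was shared between mural cells and trophocyte-gated fibroblasts. Pericytes held 59.9, 51.5, 48.8 and 87.7 CPM (62.0 ± 17.8, n = 4), then 114 (cecum) and 41.4 (large intestine). Trophocyte-gated cells held 35.6, 24.6, 39.5 and 27.4 (31.8 ± 6.93), then 51.9 and 11.5, and their small intestinal range did not overlap that of pericytes. Glia held 70.2, 39.3 and 11.4 in the 3 libraries with at least 20 glial cells, a spread that overlapped both. SEMF-gated and *Adamdec1*-gated cells were at most at 1.09 in any small intestinal library. Universal fibroblast-gated cells held 4.70 to 17.4 in the small intestine, 67.7 (cecum) and 10.2 (large intestine). In thinned cells 7.66% of pericytes and 6.68% of trophocyte-gated cells held a *Chrdl1* UMI, against 0.05% of LECs.

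*Nog* encodes noggin, which caps both receptor-binding faces of BMP dimers. It was low in all fibroblast subsets and was led by myofibroblasts at 27.8, 17.9, 29.2 and 19.5 CPM (23.6 ± 5.70, n = 4), 6.08 (cecum) and 4.89 (large intestine). No other class reached 4 CPM in a small intestinal library. Telocyte-gated cells of the small intestine held 0 *Nog* UMIs among 2451294, which allows a level of up to 1.22 CPM, so myofibroblasts were at least 19.3-fold higher. After thinning, 4.82% of myofibroblasts (14.7% without thinning, median 9207.5 UMIs) and 0.0045% of LECs held a *Nog* UMI. In the large bowel SEMF-gated cells held 1.92 (cecum) and 5.04 (large intestine), the second close to the myofibroblast level of that library.

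*Fst* encodes follistatin, best known for trapping activins and also able to bind several BMPs, and *Fstl1* encodes follistatin-like 1, a related secreted glycoprotein with reported BMP4 binding. *Fst* in telocyte-gated cells was 264, 328, 339 and 96.1 CPM in the small intestine (257 ± 112, n = 4), 590 (cecum) and 58.9 (large intestine). SEMF-gated cells of the small intestine held 1.42, 0.73, 0.48 and 0.40 (0.76 ± 0.46), which is lower than every telocyte value, but 111 (cecum) and 30.9 (large intestine). Trophocyte-gated cells held 12, 7.96, 4.99 and 2.40, with both proximal libraries above both distal ones, then 6.23 and 8.81. Small intestinal pericytes held 0 *Fst* UMIs among 3972790, a limit of 0.755 CPM and at least 340-fold below telocyte-gated cells. Thinned cells held a *Fst* UMI in 23.3% of telocyte-gated cells, 1.44% of trophocyte-gated cells, 0.16% of SEMF-gated cells and 0.10% of LECs.

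*Fstl1* was detected in all fibroblast subsets of all 6 libraries. Its highest levels were in universal fibroblast-gated cells, at 834, 920, 923 and 961 CPM (910 ± 53.8, n = 4), 1267 (cecum) and 1328 (large intestine). Myofibroblasts held 484, 567, 578 and 615, *Adamdec1*-gated cells 494, 506, 501 and 556, and trophocyte-gated cells 452, 425, 447 and 486. The first of these overlapped the second, and *Adamdec1*-gated cells lay above trophocyte-gated cells in each of the 4 libraries. LECs held 60.3 to 76.1 in the small intestine and 262 and 250 in the cecum and large intestine, whose LEC sums rested on 232 and 265 cells. Free RNA held *Fstl1* at 302 to 582 CPM, and its part in the LEC level was not tested.

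*Twsg1* encodes twisted gastrulation, which forms complexes with chordin and BMPs and can favour or hinder signalling. Telocyte-gated cells held 582, 431, 548 and 384 CPM (486 ± 94.0, n = 4), 364 (cecum) and 342 (large intestine). SEMF-gated cells held 185, 176, 151 and 214 (182 ± 25.9), all below the telocyte values, then 178 and 338, so that the large intestinal sums of both gates were nearly level. Trophocyte-gated cells held 95.3, 90.8, 78.3 and 103, below all SEMF values. A *Twsg1* UMI was present in 60.9% of thinned telocyte-gated, 34.9% of SEMF-gated and 21.4% of trophocyte-gated cells and in 16% of LECs, which held 59.7 to 78.8 CPM.

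*Bmper* encodes a crossveinless-2 type protein with chordin-like repeats that binds BMPs near the cell surface. It was led by SEMF-gated cells at 199, 90.9, 232 and 143 CPM (166 ± 62.3, n = 4), of which both first libraries were the higher ones of their region, and at 21.2 (cecum) and 22.4 (large intestine). Trophocyte-gated cells held 6.13 and 6.01 in the proximal and 15.0 and 14.4 in the distal libraries, then 28.4 and 7.05. Pericytes held 11.5 to 31.1 in the small intestine but 148 (cecum) and 104 (large intestine), where they were above every fibroblast subset. In thinned cells 29.5% of SEMF-gated cells, 2.15% of trophocyte-gated cells and 0.34% of LECs held a *Bmper* UMI.

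*Sostdc1* encodes a sclerostin-related antagonist of BMP and WNT signals and was led by glia. The 3 glial sums of the small intestine held 424, 576 and 512 CPM (504 ± 76.3, n = 3, from 63, 33 and 39 cells). No other class exceeded 0.48 in any small intestinal library. Universal fibroblast-gated cells held 0 UMIs among 17304830, a limit of 0.173 CPM, at least 2906-fold below glia. After thinning, 59.6% of glia and 0.0145% of LECs held a *Sostdc1* UMI. Glial sums of the cecum and large intestine had 0 and 8 cells and were not used.

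Which antagonists separated the fibroblast subsets was tested with edgeR's quasi-likelihood test on UMIs summed per class in the 4 small intestinal libraries, fitted on all genes with library as a block. Each count of antagonists or of pathway genes is read beside the share of all genes called in that comparison. Differences are log2 fold changes of the first class over the second, with standard errors and Benjamini-Hochberg adjusted p-values. For edgeR fits the standard error was taken as the absolute fold change over the square root of the F statistic, and is approximate. A gene below the filter on low counts was not tested.

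Between SEMF-gated and trophocyte-gated cells all 7 tested antagonists differed, 2 higher and 5 lower, where 63% of all 15788 genes were called. *Grem1* was lower in SEMF-gated cells by a log2 fold change of -6.64 ± 0.10 (adjusted p = 2.29e-07) and *Chrdl1* by -6.28 ± 0.16 (7.17e-07). *Chrd* (-3.88), *Fst* (-3.49) and *Fstl1* (-0.66) were also lower, while *Bmper* was higher by 3.73 ± 0.25 (adjusted p = 2.96e-05) and *Twsg1* by 0.65. *Grem1*, *Chrdl1* and *Fst* in SEMF-gated cells were at or near their LEC levels, so the sizes of these differences are not fixed by these data. Over the alternatives *Grem1* ran from -17.85 with free RNA subtracted to -4.72 with doublets kept and *Chrdl1* from -9.00 to -4.56. *Chrd* was at -6.73 with free RNA subtracted and *Fst* at -6.36 with clusters in place of gates. All 9 genes entered the comparison, and *Nog* and *Sostdc1* did not pass the filter. Immediate early and heat shock genes summed to 10792 to 12531 CPM in trophocyte-gated and 817 to 1874 in SEMF-gated cells of the small intestine, myofibroblast markers to 88.3 to 134 and 690 to 788, and blood endothelial markers to 14.7 to 20.5 and 115 to 238, and their part in the result was not tested. The median difference of the tested antagonists was -3.49 and that of all genes -0.02.

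Telocyte-gated and SEMF-gated cells, which share many markers, differed in 6 of 7 tested antagonists, 5 higher and 1 lower, against 19.6% of all genes. *Fst* had the largest difference at 8.26 ± 0.23 (adjusted p = 3.32e-11), against SEMF levels close to those of LECs and with a range of 7.60 to 11.42 over the alternatives, followed by *Chrd* at 3.89 ± 0.33 and *Chrdl1* at 3.20 ± 0.99 (adjusted p = 0.0359). The *Chrdl1* difference rested on 13 UMIs in telocyte-gated cells, at 3.25 and 15.3 CPM in the proximal but 0 and 0 in the distal libraries, against 0.33, 0.40, 0.65 and 0.64 in SEMF-gated cells. A higher level was thus seen in the proximal pair alone. The 0 UMIs of the 55 and 45 distal telocyte-gated cells cannot show that the difference was absent there. The *Chrdl1* difference fell below the filter on low counts in 7 of the 14 alternatives, among them without either proximal library and without cells of several hashtags. It did not pass with DESeq2, with doublets kept or with clusters in place of gates. *Grem1* was higher in telocyte-gated cells by 2.61 ± 0.16 (adjusted p = 7.23e-08), but the difference was 11.89 with free RNA subtracted, 1.15 ± 0.17 with doublets kept, 2.66 ± 0.20 without cells of several hashtags and 0.03 ± 0.31 (adjusted p = 0.972) with clusters in place of gates. *Twsg1* was higher by 1.42 and *Bmper* lower by -2.45, and *Fstl1* differed by 0.07 ± 0.13 (adjusted p = 0.788). The *Chrd* difference was 6.86 with free RNA subtracted. Immediate early and heat shock genes summed to 2848 to 7014 CPM in telocyte-gated and 817 to 1874 in SEMF-gated cells of the small intestine. Myofibroblast markers summed to 1437 to 3060 and 690 to 788 in these gates, and pericyte markers to 529 to 867 and 132 to 327. Their part in the result was not tested.

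**Figure D2:**
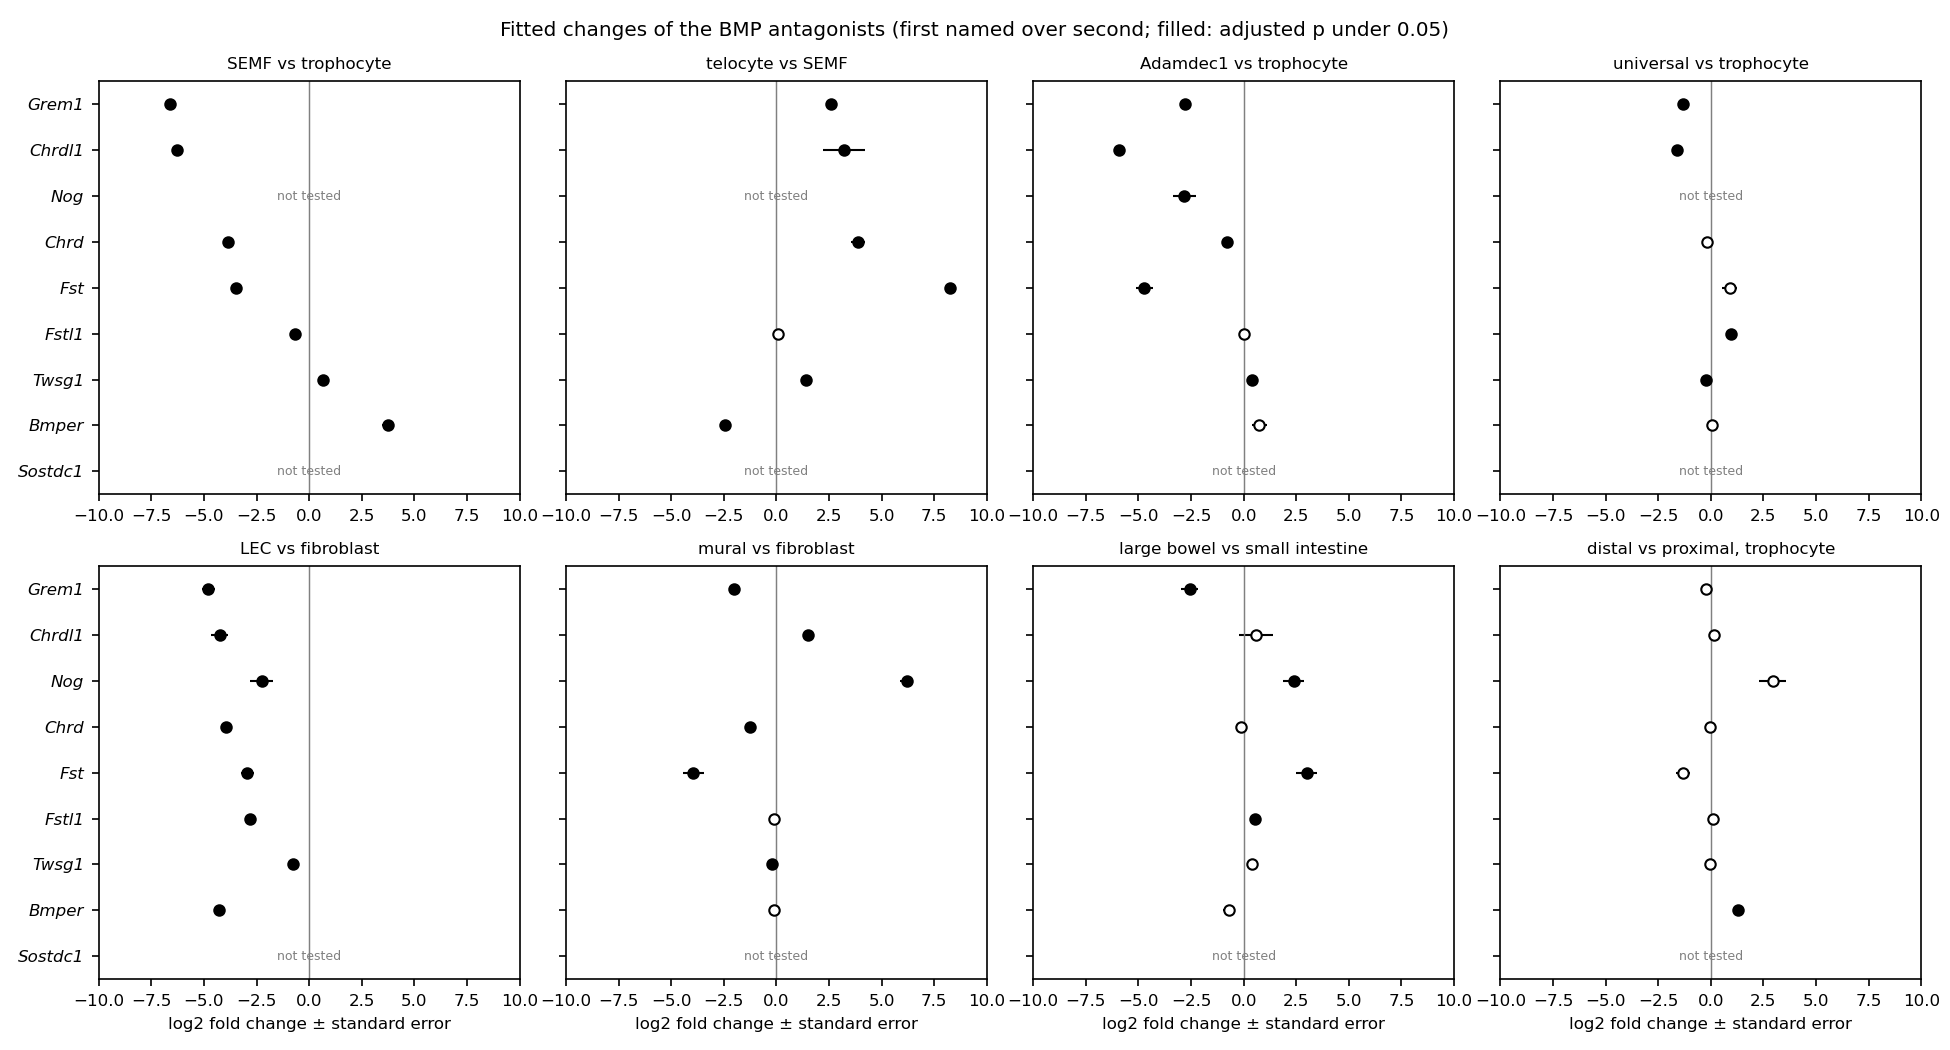
Log2 fold changes of each antagonist in 8 comparisons (points, from edgeR, with bars of 1 standard error derived from its F statistic). Filled points have an adjusted p under 0.05, and genes below the filter are marked as not tested. *Grem1* lies at -6.64 in SEMF-gated against trophocyte-gated cells and *Fst* at 8.26 in telocyte-gated against SEMF-gated cells.

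*Adamdec1*-gated fibroblasts differed from trophocyte-gated cells in 6 of 8 tested antagonists, 1 higher and 5 lower, against 45.3% of all genes. *Chrdl1* was lower by -5.90 ± 0.17, *Fst* by -4.73 ± 0.40 and *Grem1* by -2.77 ± 0.10 (adjusted p = 8.85e-07). *Chrd* (-0.81) was also lower and *Twsg1* higher by 0.37. The count of lower genes includes *Nog* (-2.83), which rested on 4 UMIs in *Adamdec1*-gated and 43 in trophocyte-gated cells, whose mean of 0.46 CPM was below the lowest free RNA level of 0.48, so its value is not read as a difference in expression. *Bmper* (0.73 ± 0.36, adjusted p = 0.127) and *Fstl1* (0.03) did not pass the test, although *Bmper* passed without the first distal library (1.35, adjusted p = 0.00077) and with no filter on low counts, and was at -0.31 with clusters in place of gates. With free RNA subtracted *Chrdl1* was at -9.06 and *Fst* at -7.84, and with clusters in place of gates *Chrd* was at -0.40. Immediate early genes summed to 2662 to 4307 CPM in the *Adamdec1*-gated sums of the small intestine. Pericyte markers summed to 961 to 1676 CPM in these sums and 336 to 757 in trophocyte-gated sums, and myofibroblast markers to 320 to 484 and 88.3 to 134. Their part in the result was not tested.

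Universal fibroblast-gated and trophocyte-gated cells differed in 4 of 7 tested antagonists, 1 higher and 3 lower, against 27.7% of all genes. *Fstl1* was higher in universal fibroblast-gated cells by 0.98 ± 0.05 (adjusted p = 1.13e-07). *Chrdl1* was lower by -1.61 ± 0.15 and *Grem1* by -1.34 ± 0.10 (adjusted p = 2.51e-06). *Twsg1* was lower by -0.23 ± 0.05. With clusters in place of gates *Grem1* was at -2.33 and *Twsg1* at 0.15 (adjusted p = 0.24). *Twsg1* also did not pass with DESeq2 (0.0543), thinned cells (0.242), no library block (0.246) or without the first distal library (0.0546). *Fst* was at 0.90 ± 0.35 (adjusted p = 0.0823) and passed without the first proximal library (1.34, adjusted p = 0.0142), with clusters (2.45), with doublets kept and with no filter, and *Bmper*, at 0.04, was at 1.91 (adjusted p = 4.15e-06) with clusters. The universal fibroblast gate in the small intestine held many cells of clusters whose gated cells were mostly trophocyte-gated, with 34.5% and 22.0% of its cells in the leading 2 clusters, and the median cell had 4 trophocyte markers. Pericyte markers summed to 134 to 322 CPM in universal fibroblast-gated and 336 to 757 in trophocyte-gated sums of the small intestine. Myofibroblast markers summed to 201, 201 and 135 against 103, 88.3 and 96.3 in both proximal and the first distal library. Their part in the result was not tested.

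Compared with all fibroblast-gated cells, LECs had lower values in all 8 tested antagonists, where 73.1% of all genes were called in either direction. The differences ran from -4.81 ± 0.31 for *Grem1*, -4.28 for *Bmper* and -4.26 for *Chrdl1* to -0.76 ± 0.05 for *Twsg1*. The count includes *Nog* (-2.27 ± 0.56, adjusted p = 0.00973), which did not pass without the second distal library (adjusted p = 0.065) and whose fibroblast levels of 0.10 to 0.36 CPM were below the free RNA level of every small intestinal library, so it is not read as a difference in expression. The sizes moved with free RNA and doublets: over the alternatives *Grem1* ran from -9.87 with free RNA subtracted to -2.18 with doublets kept, *Bmper* from -7.59 to -2.08, *Chrd* from -13.4 to -2.01, *Nog* from -3.50 to -0.95 and *Chrdl1* from -6.36 to -2.11. *Fstl1* was at -1.67 with doublets kept and *Fst* at -5.00 with clusters in place of gates.

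Mural cells (pericytes and myofibroblasts in 1 sum) differed from fibroblasts in 6 of 8 tested antagonists, 2 higher and 4 lower, against 36.8% of all genes. *Nog* was higher by 6.18 ± 0.32 (adjusted p = 1.06e-07) and *Chrdl1* by 1.49 ± 0.25, while *Fst* was lower by -3.94 ± 0.48, *Grem1* by -2.02 ± 0.17 and *Chrd* by -1.26 ± 0.11. The fibroblast *Nog* level was below free RNA, as in the comparison with LECs, so the size of the *Nog* difference is not fixed by these data. Mean *Nog* was 23.6 CPM in myofibroblasts and 0.19 in pericytes, so the higher value was that of myofibroblasts. *Twsg1* was lower by -0.21 (adjusted p = 0.0461) but passed in only 7 of 14 alternative settings and not without the second distal or either proximal library. *Bmper* (-0.12) and *Fstl1* (-0.10) did not pass.

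Other genes of the pathway were followed in a list of 45 antagonists, inhibitors, ligands, receptors and targets. In SEMF-gated against trophocyte-gated cells, where 63% of all genes were called, 17 of 38 tested were higher and 17 lower. The target *Id1*, which BMP SMADs induce, was higher by 4.34, the ligand *Bmp7* by 3.37 and the inhibitory SMAD gene *Smad6* by 2.69, while the matrix protein gene *Smoc2* was lower by -4.63 and the receptor gene *Bmpr1b* by -3.35. Of the 10 other extracellular antagonists and binders tested, 2 were higher and 7 lower, and 3 of 4 *Id* targets were higher. In telocyte-gated against SEMF-gated cells (19.6% of all genes called) 20 of 41 were higher and 6 lower, and all 9 ligands of the list were among the higher genes. The largest of these were *Bmp3* (7.46), the activin subunit gene *Inhbb* (7.15) and the BMP binder gene *Smoc1* (6.84), and the lower genes included *Id4* (-0.90), *Id3* (-0.83) and the receptor gene *Acvrl1* (-0.77).

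In *Adamdec1*-gated against trophocyte-gated cells (45.3% of all genes called) 13 of 37 list genes were higher, led by the ligands *Bmp5* (2.45) and *Bmp7* (2.38) and the BMP binder *Vwc2* (2.01), and 16 were lower, among them *Gdf10* (-3.20) and *Smoc2* (-2.46). In universal fibroblast-gated cells (27.7%) 12 of 38 were higher (*Inhbb* 2.43, *Bmp7* 2.39, *Gdf10* 1.89) and 8 lower (among them the protease gene *Htra1* -0.75 and the DAN-family gene *Dand5* -0.69). LECs (73.1%) were higher than fibroblasts in 7 of 42, with the tolloid-like protease gene *Tll1* at 7.04, *Crim1* at 3.06 and *Id1* at 3.02, and lower in 31, with *Vwc2* at -5.15, *Bmpr1a* at -4.73 and *Bmpr1b* at -4.67. Mural cells (36.8%) were higher in 12 of 42 (among them *Smoc1* 5.56 and *Id4* 3.93) and lower in 10 (*Bmp4* -1.20, *Htra1* -1.16, *Bmp6* -1.09). Other antagonists and binders of the list that reached 50 CPM in a small intestinal class included *Crim1*, a membrane protein with chordin-like repeats, in blood endothelium (909 ± 44.2), *Nbl1*, another DAN-family member, in telocyte-gated cells (675 ± 180), *Vwc2* in *Adamdec1*-gated cells (342 ± 92.1), *Htra1* (264 ± 72.1) and *Smoc1* (137 ± 57.6) in telocyte-gated cells, and *Smoc2* in pericytes (251 ± 242, all n = 4).

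The next question was whether antagonists differed along the gut. In all fibroblast-gated cells, the 2 large bowel libraries (cecum and large intestine) differed from the 4 small intestinal libraries in 4 of 8 tested antagonists, 3 higher and 1 lower, against 30.4% of all genes. *Grem1* was 671, 700, 666 and 508 CPM in the small intestine, against 55.1 (cecum) and 156 (large intestine), a log2 difference of -2.57 ± 0.41 (adjusted p = 0.00642). Both large bowel libraries lay below all small intestinal ones. *Fst* was 8.53, 7.04, 3.84 and 2.24 against 53.8 and 29.3, a difference of 3.00 ± 0.50 (adjusted p = 0.00702) with no overlap. *Nog* was higher by 2.37 ± 0.48 (0.0130) from levels of at most 1.59, close to its free RNA level of 0.48 to 1.23, and *Fstl1* by 0.53 ± 0.15 (adjusted p = 0.0400), which passed in 9 of 17 alternative settings and not without the cecum, the second distal or either proximal library. *Nog* did not pass when the large intestine was left out (adjusted p = 0.0585) or with the proximal libraries left out (0.0685).

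The make-up of the fibroblast gate moved with region. Trophocyte-gated cells were 12.5% to 29.2% of fibroblasts in the small intestinal libraries, 1.97% (cecum) and 1.24% (large intestine), telocyte-gated cells 0.318% to 1.09%, 3.44% and 22.5%, and universal fibroblast-gated cells 2.95% to 4.63%, 25.6% and 12.5%. Immediate early and heat shock genes reached 12201 to 32769 CPM in the fibroblast subsets of the cecum. The part of either in the differences between regions was not tested. Of the pathway list, beside the 30.4% of all genes called, 14 of 42 genes were higher in the large bowel (*Bmp3* 5.31, *Bmp7* 4.38, *Smoc1* 3.44) and 4 lower, including *Vwc2* (-7.42) and *Bmpr1b* (-4.29).

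Within gated subsets, *Grem1* in the cecum was below all small intestinal libraries in each of the 5 subsets. In SEMF-gated cells the small intestinal levels were near those of LECs, and in telocyte-gated cells the cecum value rested on cells of several hashtags. The free RNA of the libraries held 302 to 544 CPM of *Grem1* in the small intestine, 43.1 (cecum) and 133 (large intestine). In all fibroblast-gated cells the *Grem1* difference between large bowel and small intestine passed with 10% of free RNA subtracted. The part of free RNA in the lower values within a gate was not tested. The large intestine was below the small intestine in all subsets but trophocyte-gated cells, where its level of 1871, from 124 cells, was above them. Of its hashtags HT0301 held 2932 from 30 cells, while HT0302 and HT0303 held 1352 and 1522, within the 1041 to 1980 of the small intestinal hashtags. Cells that passed 1 gate were not of the same clusters along the gut. SEMF-gated cells of the small intestine lay in 2 clusters led by *Itga8* (66.3%) and *Frmd5* (31.0%), both SEMF gate markers. Those of the cecum lay mostly (84.1%) in a cluster led by *Ccl8*, whose gated cells were mostly *Adamdec1*-gated. Those of the large intestine lay in that cluster (44.4%) and in one (54.3%) whose 10 leading genes held the telocyte markers *Sox6* and *Tmem158* and the SEMF markers *Procr* and *Nrg1*, and whose gated cells were mostly (80.2%) telocyte-gated. Trophocyte-gated cells of the cecum lay mostly (74.3%) in a cluster of mostly universal fibroblast-gated cells. Telocyte-gated cells of the small intestine lay mostly (79.4%) in a cluster led by *Lgr5*, a telocyte gate marker. Those of the cecum (81.8%) and large intestine (90.8%) lay mostly in the cluster above with *Tmem158* among its leading genes. Differences between regions within a gate are therefore between cells that pass the same markers and not between cells of a shared cluster.

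**Figure D3:**
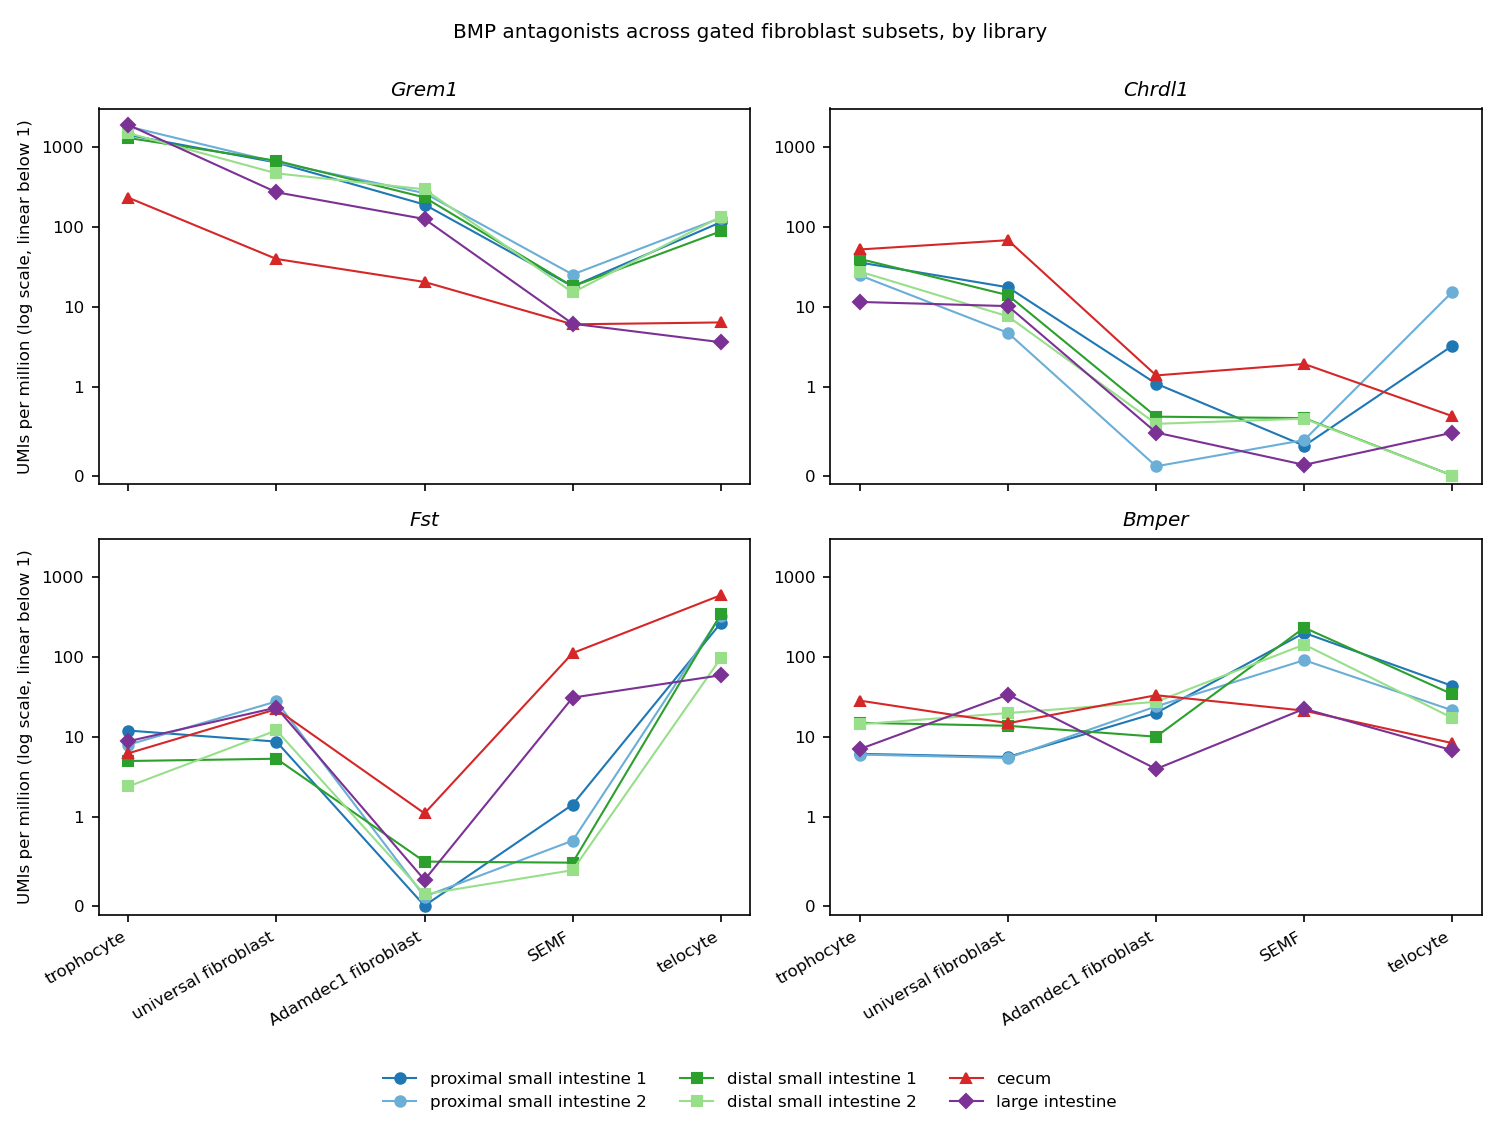
Levels (CPM, symmetric log axis that is linear below 1) of *Grem1*, *Chrdl1*, *Fst* and *Bmper* in the 5 gated fibroblast subsets, with lines joining the values of a library. *Fst* in SEMF-gated cells is at most 1.42 in the small intestinal libraries and 111 in the cecum, and *Bmper* in SEMF-gated cells is at least 90.9 in the small intestinal libraries and 21.2 and 22.4 in the cecum and large intestine.

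Whether the contrast between 2 subsets itself differed between large bowel and small intestine was tested as an interaction over all 6 libraries, a test added after the data had been seen. For SEMF-gated against trophocyte-gated cells 2 of 8 antagonists passed, against 8.26% of all genes. *Fst* went from a log2 difference of -3.43 in the small intestine to 3.06 in the large bowel, a change of 6.50 ± 0.48 (adjusted p = 0.00087). *Bmper* went from 3.78 to 0.09, a change of -3.68 ± 0.75 (adjusted p = 0.0262). The *Bmper* change kept its size but did not pass with free RNA subtracted (-3.98), with stricter gates (-3.47) or without the first distal library (-3.74), and was -2.21 (adjusted p = 0.449) without the cecum. For telocyte-gated against SEMF-gated cells 2 of 8 passed, against 4.25% of all genes: *Fst*, from 8.27 to 1.63 (change -6.64 ± 0.47, adjusted p = 1.41e-05), and *Grem1*, from 2.60 to -0.51 (change -3.11 ± 0.34, adjusted p = 3.00e-04). The *Grem1* change was -0.11 ± 0.35 (adjusted p = 0.956) with doublets kept and -1.76 ± 0.44 (0.0544) with stricter gates, and it was -3.78 without cells of several hashtags and -11.94 with free RNA subtracted.

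Some SEMF-gated cells of the large bowel lay in its cluster of mostly telocyte-gated cells (12.7% in the cecum, 54.3% in the large intestine). *Fst* was therefore also read in SEMF-gated cells without a UMI of any telocyte marker. In the small intestine those cells held 0 to 0.365 CPM, against 2.32, 1.13, 1.12 and 0.704 in cells with at least 1 telocyte marker. In the cecum 254 such cells held 24.9 (45 UMIs), against 137 in the 711 cells with at least 1 telocyte marker. In the large intestine 52 such cells held 0, against 32.8 in the other 732. *Fst* in SEMF-gated cells was thus higher where telocyte markers were also detected in both large bowel libraries. The direction was the same in the small intestine, but rested on 15, 11, 3 and 5 UMIs against 2, 0, 0 and 0. LECs of the small intestine held *Fst* at 0.185 to 1.12 CPM. The part of the gate in the interaction was not tested further.

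For *Adamdec1*-gated against trophocyte-gated cells 3 of 8 antagonists passed, against 6.04% of all genes. *Chrd* went from -0.80 to -2.51 (change -1.71 ± 0.19, adjusted p = 0.00119), *Grem1* from -2.75 to -3.90 (change -1.15 ± 0.19, adjusted p = 0.00888) and *Fstl1* from 0.04 to -0.49 (change -0.54 ± 0.09, adjusted p = 0.00929). The *Grem1* change did not pass without the large intestine (-0.91, adjusted p = 0.0836) and was -1.75 with clusters in place of gates, and the *Fstl1* change did not pass with stricter gates (-0.37, adjusted p = 0.146). For universal fibroblast-gated against trophocyte-gated cells 2 of 8 passed, against 0.58% of all genes. *Grem1* went from -1.34 to -2.66 (change -1.32 ± 0.20, adjusted p = 0.0187) and *Chrdl1* from -1.61 to 0.39 (change 2.00 ± 0.30, adjusted p = 0.0159). The *Grem1* change was 0.0017 ± 0.43 with clusters in place of gates and did not pass without the large intestine (adjusted p = 0.068) or the first proximal library (0.061). The *Chrdl1* change did not pass without the cecum (1.39 ± 0.53, adjusted p = 0.316) and was 2.02 (adjusted p = 0.0995) with stricter gates.

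The hashtags of the cecum library gave unequal *Grem1* levels in the same order in trophocyte-gated, universal fibroblast-gated, *Adamdec1*-gated and SEMF-gated cells. Trophocyte-gated cells held 319, 150 and 28.5 CPM for hashtags HT0301, HT0302 and HT0303 (124, 54 and 33 cells), universal fibroblast-gated cells 84.9, 21.7 and 13.9, *Adamdec1*-gated cells 62.9, 14.1 and 4.97, and SEMF-gated cells 14.3, 5.61 and 1.91. Telocyte-gated cells, at 0, 0 and 0.89, did not follow this order. In trophocyte-gated cells the highest of the cecum hashtags was below the lowest of the small intestine. Hashtags are parts of 1 library, and no test was made over them. Cells with no called hashtag or with several enter none of these values. Those with no hashtag were 55.7%, 53.8%, 25.4% and 39.3% of trophocyte-gated cells in the small intestinal libraries. They held 1576, 1954, 1466 and 1669 CPM of *Grem1*, against 1210, 1654, 1258 and 1370 in cells with 1 hashtag.

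**Figure D4:**
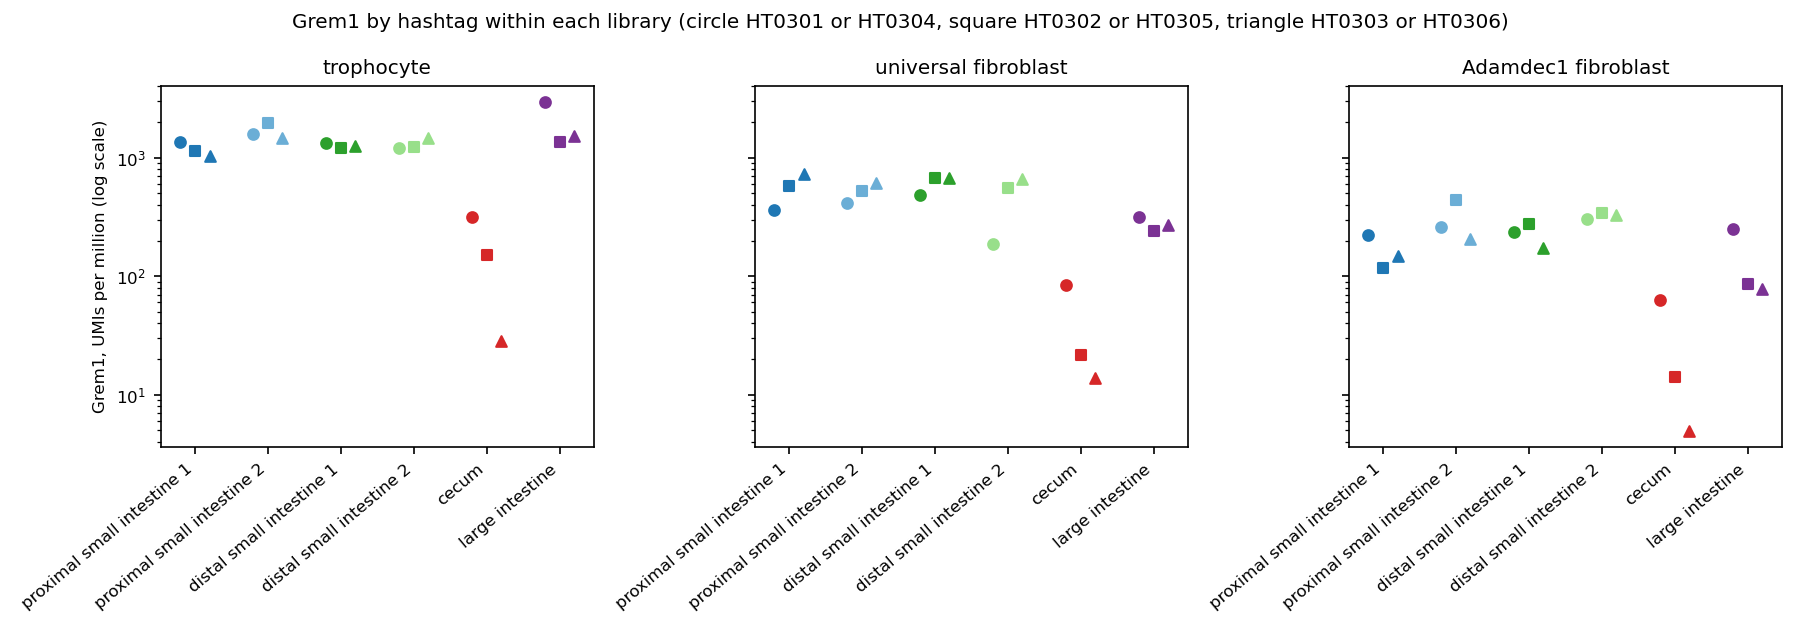
*Grem1* level (CPM, log axis) in each hashtag of each library for trophocyte-gated, universal fibroblast-gated and *Adamdec1*-gated cells. Cells with no called hashtag or with several are not shown. In the cecum the 3 hashtags spread from 28.5 to 319 in trophocyte-gated cells, all below the small intestinal hashtags.

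Between distal and proximal small intestine, trophocyte-gated cells differed in 1 of 8 tested antagonists, against 0.334% of all genes. *Bmper* was higher in the distal libraries (15.0 and 14.4 CPM against 6.13 and 6.01), a log2 difference of 1.28 ± 0.17 (adjusted p = 0.0280). It did not pass after thinning of cells to 2500 UMIs (1.15 ± 0.26, adjusted p = 0.124). Free RNA held *Bmper* at 23.0 and 15.8 CPM in the proximal and 20.1 and 23.9 in the distal libraries, above the trophocyte-gated level in each. *Adamdec1* fibroblast markers summed to 2015 and 2048 CPM in the proximal and 2889 and 3775 in the distal trophocyte-gated sums. Mean *Bmper* in the small intestine was 20.3 CPM in *Adamdec1*-gated and 10.4 in trophocyte-gated cells. The *Bmper* difference passed with 10% of free RNA subtracted. The part of a larger share of free RNA, or of the *Adamdec1* fibroblast markers, was not tested. *Fst* differed by -1.33 ± 0.35 (adjusted p = 0.288) and passed with DESeq2 (adjusted p = 0.0254), with no filter and without the first distal (-2.13) or second proximal library (-1.62), where 1 region is left with a single library and the other alone gives the spread. *Nog* differed by 2.94 ± 0.64 (adjusted p = 0.158) from levels of at most 0.98 CPM, near its free RNA level, and passed with no filter. *Grem1* differed by -0.21 ± 0.23 and *Chrd* by -0.04 ± 0.14. In SEMF-gated cells 0 of 5 tested antagonists passed, against 0% of all genes by edgeR. At an unadjusted p under 0.05, edgeR had 509 genes, and adjusted calls numbered 48 with DESeq2 and 0 with limma-voom. The largest antagonist differences in SEMF-gated cells were 0.40 ± 0.41 for *Bmper* and -0.37 ± 0.22 for *Grem1*. None of the pathway list passed in either subset, with 37 and 38 genes tested.

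Within trophocyte-gated cells thinned to 2500 UMIs, *Grem1* was found more often in cells that also held a *Chrdl1* UMI than in those that did not. The shares were 85.7% against 76.0%, 93.6% against 81.3%, 86.9% against 71.5% and 91.2% against 71.1% in the 4 small intestinal libraries, from 244, 94, 427 and 68 *Chrdl1*-positive cells. The same split by *Chrd* gave 79.1% against 76.5%, 76.6% against 82.4%, 70.5% against 73.0% and 76.2% against 71.9%, with no shared direction. In telocyte-gated cells *Fst* was found in 32.9%, 37.5%, 43.9% and 15.4% of *Twsg1*-positive cells and in 4.44%, 17.1%, 0% and 5.26% of *Twsg1*-negative cells. Positive cells numbered 79, 32, 41 and 26 among 124, 67, 55 and 45, so the negative shares of the distal libraries rested on few cells. The direction was the same in 4 of 4 libraries. In SEMF-gated cells *Bmper* was found in 36.1%, 17.8%, 38.8% and 27.2% of *Twsg1*-positive and 34.2%, 18.9%, 37.9% and 25.9% of *Twsg1*-negative cells, which were close in every library.

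The genes whose levels followed each antagonist most closely were ranked by Pearson's r over 55 sums of a class and a small intestinal library, which share libraries and are not independent. For *Grem1* they were *C3*, itself a gate marker, *Rspo2* and *Adgrd1* (r = 0.89 each), and for *Chrd* *Hmcn2* (0.90), *Steap3* (0.89) and *Ptgis* (0.88). *Fst* was closest to *Nalf1* and *Gpr39* (0.82 each), *Bmper* to *Gna14* (0.88) and *Tmem178* (0.87), *Twsg1* to *Ptch1* (0.88) and *Nog* to the cardiac actin gene *Actc1* (0.93). *Fstl1* was closest to *Mxra8*, *Smo* and *Sgce* (0.94 each), *Chrdl1* to *Ntn4* (0.86) and *Sostdc1* to *Gm13403*, *Sox2* and the gate marker *Sox10* (1.00 each). *Sostdc1* stood out in glial sums alone and *Nog* in myofibroblast sums alone. Their r thus rest on a single class each, and any gene confined to that class would rank high. Among the antagonists themselves, *Grem1* with *Chrd* and *Chrd* with *Fstl1* had r = 0.71.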

How the data were processed

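Per the labels, reporter-positive stromal and other cells were run as 6 droplet 3′ libraries, each with 3 hashtags. The authors deposited UMI counts per gene and barcode, made with Cell Ranger (8.1.0 in the submitters' processing notes, another version in the file headers) and mm39, with replicates kept apart. The deposited counts were unfiltered and were used unnormalised.

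Cells were barcodes that held between 2500 and 40000 UMIs from 1000 to 7500 genes, with less than 10% of UMIs mitochondrial. Scrublet doublets (4.91% to 11.4% per library) were removed, leaving 11174 to 19073 cells per library. Lineages were gated by the share of marker genes detected and fibroblast subsets by mean z-score (at least 0.4, and 0.3 above the next subset). The gate limits were set after clusters had been seen, and the 9 genes were kept out of gates and of the 26 clusters. Where clusters replaced gates, each cluster took the class of most of its gated cells. The gates use marker genes of the same cells, so differences in those markers are not results. UMIs were summed per class and library where at least 20 cells were present.

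Sums were tested with edgeR 4.0.16 (filterByExpr minimum count 10, TMM, quasi-likelihood) in R 4.3.3 over all genes. Library was a block for comparisons of classes, and the threshold was a Benjamini-Hochberg adjusted p of 0.05. The edgeR fits of classes, regions and interactions were also run on counts simulated from these same sums. The other steps were not tested on simulated data. Shares were computed before and after thinning to 2500 UMIs. A count of 0 was given a limit of 3 UMIs, and such limits cover counting error only. Other versions were limma 3.58.1, DESeq2 1.42.0, Python 3.11.15 and scanpy 1.11.5.

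The members and lists were chosen with earlier results of these data known. All 9 members were described in every class and library. Of the 45 pathway genes, up to 3 per direction with the largest fold past the threshold were named per comparison, with binders that reached 50 CPM and the nearest patterns. An item of the list that met this rule is not reported here. Alternatives were limma-voom, DESeq2, no low-count filter, 10% free RNA subtracted, doublets kept, stricter gates, clusters in place of gates, thinned cells, no library block, a replicate block, a small intestinal region left out and each library left out. Tests of contrasts between large bowel and small intestine, the splits by hashtag and by telocyte markers, and the alternative without cells of several hashtags, were chosen after seeing the data.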

Additional observations from a re-analysis of the deposited data

Results flagged for a closer look

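A contrast between fibroblast gates differed between the large bowel and the small intestine for 9 of 32 pairs of antagonist and contrast, by an interaction test over 6 libraries with edgeR. Over all genes the share called was 8.26% for SEMF against trophocyte, 4.25% for telocyte against SEMF, 6.04% for *Adamdec1* against trophocyte and 0.58% for universal against trophocyte. For *Adamdec1*-gated against trophocyte-gated cells the changes, as large bowel minus small intestine on the log2 scale, were -1.71 for *Chrd*, -1.15 for *Grem1* and -0.54 for *Fstl1*. For SEMF-gated against trophocyte-gated cells they were 6.50 for *Fst* and -3.68 for *Bmper*, and for telocyte-gated against SEMF-gated cells -6.64 for *Fst* and -3.11 for *Grem1*. For universal fibroblast-gated against trophocyte-gated cells they were 2.00 for *Chrdl1* and -1.32 for *Grem1*. The large bowel arm held 1 cecum and 1 large intestine library, and contrasts that name the same gate share its cells. Both *Fst* changes and the *Chrd* change passed in every alternative run. The other 6 each failed in at least 1: with stricter gates (*Fstl1*, *Bmper*, *Chrdl1* and *Grem1* in telocyte against SEMF), free RNA subtracted (*Bmper*), doublets kept (*Grem1* in telocyte against SEMF, -0.11), clusters (*Grem1* in universal against trophocyte, 0.0017), or without the cecum (*Bmper*, *Chrdl1*), the large intestine (*Grem1* in *Adamdec1* and in universal against trophocyte), the first distal library (*Bmper*) or the first proximal library (*Grem1* in universal against trophocyte).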

How the results depend on the processing

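Between gates the counts of differing antagonists stayed within 1.5 times under every alternative run. When each library was left out in turn they were 7 to 7 for SEMF-gated against trophocyte-gated cells, 5 to 6 for telocyte-gated against SEMF-gated cells, 5 to 6 for *Adamdec1*-gated and 3 to 5 for universal fibroblast-gated against trophocyte-gated cells, 7 to 8 for LECs and 5 to 6 for mural cells. For large bowel against small intestine the count was 3 to 5 with a library left out and 2, with 945 genes in all, without the proximal libraries. For distal against proximal trophocyte-gated cells 1 antagonist (53 genes) became 2 (207) with DESeq2, 3 (468) with no filter, 0 (65) with thinned cells and 1 to 2 with a library left out. For SEMF-gated cells the count was 0 to 0. For contrasts between bowels, *Adamdec1* against trophocyte had 6 antagonists with clusters in place of gates, where the share of all genes called rose to 15.5% (3 and 6.04% in the reported fit, 2 and 2.89% with stricter gates, 2 to 3 with a library left out), SEMF against trophocyte had 1 with free RNA subtracted (6.02% of all genes) and 1 with stricter gates (5.44%), 2 in the reported fit (8.26%), 3 with no filter (6.07%) and 3 with thinned cells (6.04%, 1 to 3 with a library left out), telocyte against SEMF had 1 with doublets kept (3.64%), 4 with no filter (4.92%) and 1 with stricter gates (3.34%, against 2 and 4.25% in the reported fit, 2 to 3 with a library left out), and universal against trophocyte had 1 with clusters (1.11%) and 1 with stricter gates (0.376%, against 2 and 0.58% in the reported fit, 1 to 2 with a library left out). The cause of these changes was not tested. Where a left-out library leaves 1 in an arm, that library is assumed to vary like the others. Leaving out cells with several hashtags, an alternative chosen after seeing the data, kept every count within 1.5 times, with *Chrdl1* of telocyte-gated cells and *Nog* of *Adamdec1*-gated cells below the filter. Clusters could not be fitted for the SEMF against trophocyte and telocyte against SEMF contrasts between bowels.

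Among differences past the threshold in at least 1 of the settings compared, signs changed for *Twsg1* in universal fibroblast-gated against trophocyte-gated cells (0.15 with clusters) and, among contrasts between bowels, for *Twsg1* in *Adamdec1* against trophocyte (0.56 with clusters), *Grem1* in SEMF against trophocyte (-0.46, and -1.77 to 1.12 with a library left out, the latter without the large intestine, and -2.05 with doublets kept and 7.59 with free RNA subtracted, neither past the threshold), *Nog* in telocyte against SEMF (-4.33 with limma-voom) and *Grem1* in universal against trophocyte (0.0017 with clusters). Without the cecum *Twsg1* passed for large bowel against small intestine (0.77), SEMF against trophocyte (1.39) and telocyte against SEMF (-1.42), and *Bmper* for large bowel (-1.13) and universal against trophocyte (2.18). Other differences that passed in neither setting also changed sign, such as *Chrdl1* between bowels, which was lower without the cecum and higher in the reported fit.

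Counts over all genes that differed by more than 1.5 times were 3579 with no library block and 4384 thinned for *Adamdec1* (7086 in the reported fit), 1475 and 2064 for universal (3949), 1664 thinned for telocyte (2584), and for the large bowel (5999) 3174 without the distal libraries, 3725 without the cecum and 3118 and 3373 without the first and second proximal library. For distal against proximal trophocyte-gated cells (53) they were 91 with free RNA subtracted, 80 with stricter gates, 33 with clusters and 186 to 397 with a library left out. For contrasts between bowels with a library left out they were 555 to 934 for *Adamdec1* (921), 612 to 1078 for SEMF (1326), 402 to 991 for telocyte (652) and 39 to 262 for universal (85), and the further counts beyond 1.5 times were 1622 with no filter, 413 with stricter gates and 2877 with clusters for *Adamdec1*, 829 with stricter gates and 812 thinned for SEMF, 1226 with no filter and 399 with free RNA subtracted for telocyte, and 168 with DESeq2, 629 with no filter, 51 with stricter gates and 180 with clusters for universal. For SEMF-gated cells in the distal against proximal comparison (0) they were 48 with DESeq2, 316 with no filter and up to 226 with a library left out.

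Replicate numbers gave 2 pairs only, with correlations of deviations of 0.27 in trophocyte-gated and 0.34 in SEMF-gated cells, and the labels do not say that a number marks a shared animal or day. In the small intestine libraries numbered 1 held hashtags HT0301 to HT0303 and those numbered 2 HT0304 to HT0306. With the replicate block the distal against proximal comparison had 3 antagonists (529 genes) in trophocyte-gated cells, with *Fst* at -1.42 (adjusted p = 1.79e-08) and *Nog* at 2.92 (adjusted p = 0.00144) past the threshold beside *Bmper*, and 0 antagonists (379 genes) in SEMF-gated cells. Depth limits telocyte-gated cells of the small intestine, with 45 to 124 cells per library, and glia.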
